A study of Mus musculus with 3 samples.

Results

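The folding machinery of the endoplasmic reticulum (ER) was followed through 10 genes in memory phenotype CD4 T cells of the mouse spleen, helper T cells with the phenotype of memory cells: Hspa5, Hsp90b1, Calr, Canx, Pdia3, Pdia4, Pdia6, Xbp1, Dnajb9 and Herpud1. Every probe set that the platform annotation assigns to 1 of these symbols was read, which gave 24 probe sets for 10 genes, out of 34945 probe sets for 18193 genes with a single symbol. The cells came from BALB/c mice kept for 10 weeks on a normal diet (ND) or on a high fat diet (HFD) that supplies 60 kcal% as fat, and were sorted to a purity above 99%. Total RNA was labelled with biotin and hybridised to Affymetrix mouse arrays, 1 for ND and 2 for HFD. No allele or agent besides the diet is named for either group. The labels give neither age nor sex, and do not say whether an array holds 1 mouse or a pool. The p-values below therefore cover the spread from sample to sample only, and that spread may be technical.

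Proteins bound for the cell surface or for secretion enter the ER unfolded. Hspa5 (BiP) and Hsp90b1 (GRP94) are its lumenal heat shock chaperones, Calr and Canx bind the sugar chains of new glycoproteins, and the Pdia proteins make and rearrange disulfide bonds. When unfolded protein builds up, the sensors IRE1 (Ern1), PERK (Eif2ak3) and ATF6 start the unfolded protein response, in which IRE1 splices the Xbp1 transcript so that it encodes an active transcription factor. Dnajb9 (ERdj4), a co-chaperone of BiP and a target of XBP1, and Herpud1, a membrane protein of ER-associated degradation, belong to that response. Effector lymphocytes that secrete cytokines depend on this machinery, and plasma cells depend on it most.

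The array labelled ND stood apart. In absolute log2 units the typical (median) gene differed by 0.394 between ND and HFD 1 and by 0.452 between ND and HFD 2, against 0.126 between HFD 1 and HFD 2. It also went against its strain label on 1 gene: H2-Ea, which BALB/c mice transcribe and mice of the H-2b haplotype do not, read 11.5 on ND and 536 and 602 on the HFD arrays, while H2-Aa read 7207 on ND and 3546 and 3664. Diet cannot be told apart from strain, handling or array batch with 1 ND array, and no comparison can be made without it. T cell markers were bright on all arrays (summed intensity 95744 on ND, 79335 and 76966 on HFD), and 7 of the 9 tested were lower and 0 higher in HFD. Of the macrophage markers 6 of 7 tested were lower (sums 2733, 1055 and 1228), and of the dendritic cell markers 4 of 6 (sums 2005, 832 and 966). Lower and higher count calls at an adjusted p under 0.05 in limma, and of all genes tested 29.2% were called lower and 20.5% higher. A marker was tested where its mean over the arrays passed the filter of 71.4. Among the lower macrophage and dendritic cell markers, C1qb (128, 65.6 and 34.8) and Flt3 (188, 71.35 and 62.1) were clear of that level on ND alone. The B cell markers summed to 1414 on ND and 3135 and 3349 on HFD, with 2 of 4 tested higher and 1 lower. The higher ones were Ms4a1 (56.8, 1612 and 1837) and Fcer2a (31.6, 524 and 644). Both lay below 71.4 on ND and were tested only through HFD. Cd22 was lower (939, 605 and 504) and Cd79b was not called (219, 190 and 168). Of the 9 B cell markers on the array, 4 lay below the filter level on every array. The neutrophil markers summed to 189, 611 and 692 with 2 of 3 tested higher, S100a8 (40.9, 247 and 362) and S100a9 (5.85, 183 and 131). These, too, lay below 71.4 on ND and were tested only through HFD. The CD8 and NK cell markers summed to 864, 1133 and 1357 with 2 of 3 tested higher (Cd8a and Eomes). The 3 other probe sets of Cd8a past the filter differed by -0.28 to 0.78 in log2 units (HFD minus ND).

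Plasma cells carry the most ER of any lymphocyte, so their markers were read beside the 10 genes. All 12 listed had a probe set and 9 were tested, of which 2 were higher (Irf4 and Mzb1) and 1 lower (Tnfrsf13b). Over all genes tested these shares were 20.5% and 29.2%. The summed intensity of the 12 markers was 13805 on ND and 16549 and 17780 on HFD, and it includes Xbp1 itself and Irf4 and Prdm1, which T cells also express. Irf4 alone gained more than the sum did, so the higher sum on HFD rests on it. Markers of the list went both ways. Irf4 read 910, 5483 and 6613 on ND, HFD 1 and HFD 2, Mzb1 169, 280 and 289, and Fkbp11, below the filter, 36.6, 88.1 and 74.7. Tnfrsf13b read 1546, 923 and 974, Jchain, which was not called (adjusted p = 0.0538), 162, 67.6 and 102, and Sdc1 and Tnfrsf17, both below the filter, 61.3, 40.5 and 26.8 and 3.96, 4.52 and 3.10. Prdm1 (838, 674 and 710), Slamf7 (417, 318 and 301), Derl3 (116, 57.8 and 89.9) and Pou2af1 (1515, 1290 and 1503) read lower on both HFD arrays without a call. The part of other cell types in the results below was not tested, and in bulk RNA fewer cells of a type and less RNA per cell cannot be told apart.

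Levels are linear intensities on the deposited scale, given for ND, HFD 1 and HFD 2 in that order, and levels of different probe sets are not compared with each other. A difference is HFD minus ND on the log2(intensity + 17.65) scale, with its standard error (SE) from limma. A gene is said to rise or fall where limma's Benjamini-Hochberg adjusted p over all 10341 genes tested was under 0.05, on the brightest probe set of the gene.

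All 10 genes were bright enough to be tested. In HFD, 5 rose (Pdia6, Canx, Hsp90b1, Calr and Hspa5), 1 fell (Dnajb9) and 4 were not called (Pdia3, Pdia4, Xbp1 and Herpud1). Of all genes tested, 20.5% were called higher and 29.2% lower. The median difference of the 10 genes was 0.13, against -0.15 for all genes. Under quantile normalization the split turned to 2 higher (Pdia6 and Canx) and 3 lower (Dnajb9, Xbp1 and Herpud1), while with arrays centred on their medians it was again 5 higher and 1 lower. Centring also turned the split of all genes, from 2117 higher and 3015 lower to 2757 and 2097. Both HFD arrays lay above ND for 6 of the 10 genes and below it for 3, against 35.8% and 54.7% of all genes. By size alone, 0 of the 10 were at least 2-fold higher in both HFD arrays and 1, Dnajb9, was at least 2-fold lower, against 6.0% and 2.6% of all genes.

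**Figure D1:**
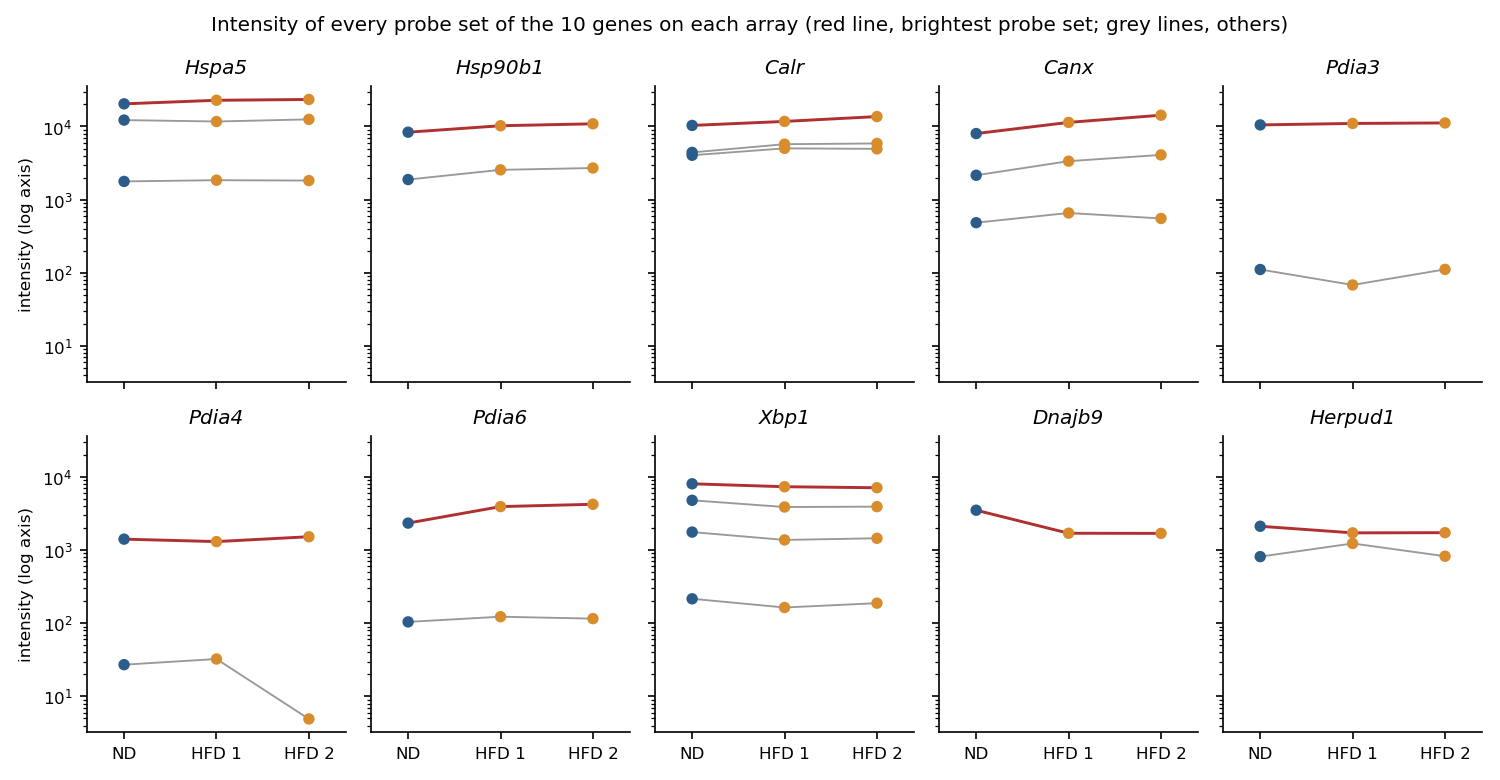
Linear intensity (log axis) of all 24 probe sets of the 10 genes on the ND array (blue) and the 2 HFD arrays (orange), 1 panel per gene, with a line joining the values of a probe set and the brightest in red. Dnajb9 drops from 3499 to 1695 and 1689, and Pdia6 climbs from 2334 to 3920 and 4216. All 4 Xbp1 probe sets lie lower on both HFD arrays, as do 54.9% of all probe sets past the filter.

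The control regions of these genes are shown because the ER stress response element (ERSE) was first described in this family. It has the letters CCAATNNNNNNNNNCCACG and is bound by ATF6 and XBP1 together with NF-Y. RefSeq promoter windows (build GRCm38.p6, 250 bases before to 50 after the start of a gene) were found for all 10 genes and searched on both strands. An exact ERSE was present in 5 of the 10 windows, those of Hspa5, Hsp90b1, Calr, Canx and Pdia6, and in 39 of all 32851 windows (0.119%). The matches follow with 6 flanking bases a side, read 5′ to 3′ along the gene's strand. Capitals mark the fixed letters, which for Calr and the second site of Hsp90b1 read as the reverse complement.
Hspa5, chr2:34772019-34772049, plus strand: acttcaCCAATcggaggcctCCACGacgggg
Hsp90b1, chr10:86705632-86705662, minus strand: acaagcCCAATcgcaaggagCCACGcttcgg
Hsp90b1, chr10:86705527-86705557, minus strand: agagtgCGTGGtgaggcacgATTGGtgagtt
Calr, chr8:84847069-84847099, minus strand: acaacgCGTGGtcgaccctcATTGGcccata
Canx, chr11:50325794-50325824, minus strand: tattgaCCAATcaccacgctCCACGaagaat
Pdia6, chr12:17266485-17266515, plus strand: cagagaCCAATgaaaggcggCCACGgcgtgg

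The site of Hspa5 lay 65 to 47 bases before the start and that of Pdia6 98 to 80. The sites of Canx and Calr lay farther out, at 145 to 127 and 162 to 144, and those of Hsp90b1 at 212 to 194 and 107 to 89. The shorter element ERSE-II (ATTGGNCCACG) was present in 12 of all windows (0.0365%), and among the 10 genes in that of Herpud1 alone, 52 to 42 bases before the start. The XBP1 core (TGACGTG) was present in 661 of all windows (2.01%) and, of the 10, in that of Hspa5 alone, 157 to 151 bases before the start. No match of one motif overlapped a match of another in these windows. The windows of Pdia3, Pdia4, Xbp1 and Dnajb9 held none of the 3 motifs, which says only that these letters are not in these windows.
Herpud1, chr8:94386371-94386393, plus strand, ERSE-II in capitals: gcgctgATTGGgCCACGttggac

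Longer stretches of 200 bases of Hspa5 and 120 bases of Dnajb9, both ending at the last base before the start, show BiP and its co-chaperone, the gene of the 10 that fell, side by side. Capitals mark the XBP1 core and the ERSE. The Dnajb9 stretch has no capitals, but it does hold ccacgtg, which shares the letters ACGTG with the XBP1 core. Variants of that core were not searched.
Hspa5, chr2:34771890-34772089, plus strand: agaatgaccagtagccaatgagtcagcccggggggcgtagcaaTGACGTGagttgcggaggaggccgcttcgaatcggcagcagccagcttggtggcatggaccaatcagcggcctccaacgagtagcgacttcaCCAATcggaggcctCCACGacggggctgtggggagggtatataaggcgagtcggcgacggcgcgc
Dnajb9, chr12:44210069-44210188, minus strand: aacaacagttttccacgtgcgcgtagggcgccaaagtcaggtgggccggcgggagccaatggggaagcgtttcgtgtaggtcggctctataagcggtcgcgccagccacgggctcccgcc

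The 5 genes with an exact ERSE were the 5 that rose, with a median difference of 0.34. Of the 5 without one, 0 rose, 1 fell and 4 were not called, with a median of -0.16. The match depended on the processing. Of the 10 genes only 2 rose under quantile normalization, 2 with no filter and 1 without a variance trend. The call of Hspa5 also rests on 1 of its 3 probe sets. Other genes with the element went both ways. Another 32 genes hold an exact ERSE in their windows and 8 of these were tested. Of the 8, 1 rose (Creld2, 0.60 ± 0.13 SE), 5 fell (Ero1b, Dnajc3, Pan2, Adcy3 and Syvn1, at -0.84 to -0.41) and 2 were not called (Alg12 and Derl3), with a median of -0.57. Of all genes tested, 20.5% were called higher and 29.2% lower. Whether the element bears on these differences was not tested. In a looser search that allowed 1 mismatch among the 10 fixed letters, chosen after these values were seen, 8 of the 10 windows matched, all but those of Xbp1 and Dnajb9, as did 1.5% of all windows.

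**Figure D2:**
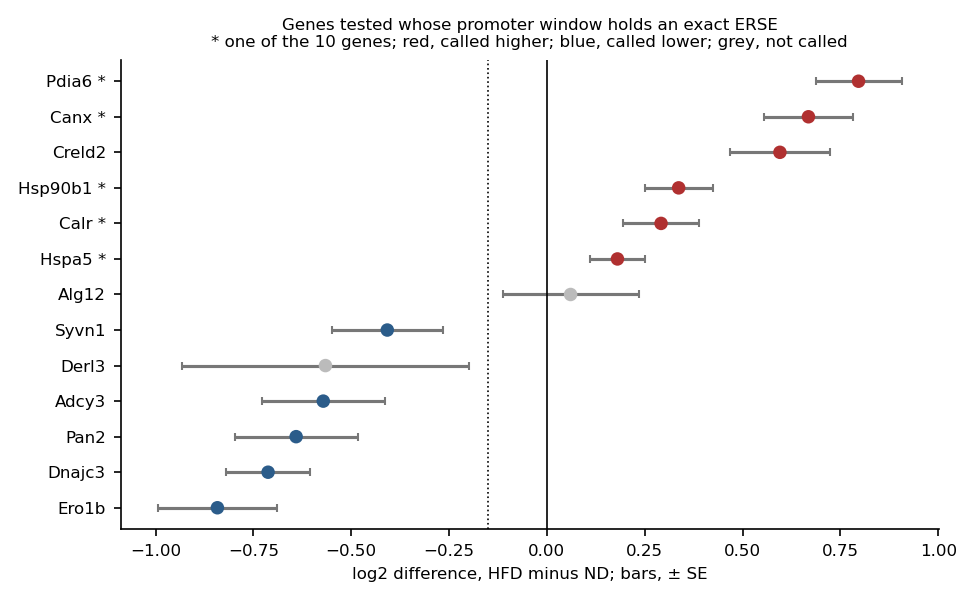
Log2 difference (HFD minus ND, ± SE) of the 13 tested genes whose promoter window holds an exact ERSE, with red for genes called higher, blue for lower and grey for not called, and a dotted line at the median of all genes. The 5 genes marked with an asterisk all lie above 0, and of the 8 others 1 was called higher and 5 lower.

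Pdia6, a disulfide isomerase that works with BiP, rose most. It read 2334 on ND and 3920 and 4216 on the HFD arrays, a mean of 4068 ± 210 (SD, n = 2). The difference was 0.80 ± 0.11 SE, or 1.74-fold (adjusted p = 8.1e-05), and 9.86% of all genes tested had a larger one. The HFD arrays did not overlap ND and lay close to each other. The gene kept its call under all 10 tested processing alternatives (0.48 to 0.95). Its dim second probe set read 104, 123 and 116 (0.17 ± 0.29, adjusted p = 0.684).

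The other disulfide isomerases of the 10 were not called. Pdia3 (ERp57), the partner of calreticulin and calnexin, read 10501, 11000 and 11174, a difference of 0.08 ± 0.08 SE (adjusted p = 0.451, 95% interval -0.10 to 0.26). Pdia4 (ERp72) read 1408, 1304 and 1520, so that ND lay between the HFD arrays (-0.00077 ± 0.14 SE, adjusted p = 0.996, interval -0.30 to 0.30). These intervals, like the others given, are not adjusted for the number of genes. The upper bounds of Pdia3 and Pdia4 lay below the lower bound of Pdia6, 0.56. Within each array pair, the difference of Pdia6 exceeded that of Pdia3 by 0.68 on HFD 1 and 0.76 on HFD 2, and that of Pdia4 by 0.85 and 0.74, gaps that were given no test of their own. The dim second probe sets of Pdia3 (111, 68.4 and 112) and Pdia4 (27.1, 32.5 and 4.92) had ND between the HFD arrays, and that of Pdia4 was the only 1 of the 24 that fell below the filter on low values.

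The lectin chaperones both rose, with the larger difference for calnexin. Canx, the membrane-bound lectin, read 8003 on ND and 11364 and 14252 on HFD, a mean of 12808 ± 2042 (SD, n = 2), which is 1.59-fold (0.67 ± 0.11 SE, adjusted p = 4.0e-04). Both HFD arrays lay above ND, by 0.51 on HFD 1 and 0.83 on HFD 2 in log2 units, and so stood apart from each other. Its second probe set read 2156, 3357 and 4087 and rose as well (0.78 ± 0.13, adjusted p = 6.1e-04). The third and dimmest read 485, 658 and 554 and was not called (0.31 ± 0.18, adjusted p = 0.182). Of the 10 tested alternatives, 1 ended the call of Canx, the fit without a variance trend (adjusted p = 0.0510).

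Calr, the soluble lectin of the ER and its main calcium buffer, read 10332, 11721 and 13652, a mean in HFD of 12687 ± 1365 (SD, n = 2). This is 1.22-fold (0.29 ± 0.10 SE, adjusted p = 0.0235), with a difference of 0.18 without HFD 2 and 0.40 without HFD 1. Its other probe sets read 4425, 5725 and 5863 (0.39 ± 0.10, adjusted p = 0.00716) and 4045, 5023 and 4942 (0.30 ± 0.10, adjusted p = 0.0307), so all 3 were called when each was tested on its own. The difference of Canx exceeded that of Calr by 0.32 on HFD 1 and by 0.43 on HFD 2, again with no test of the gap. The call of Calr ended under quantile normalization (0.10, adjusted p = 0.339), with no filter (adjusted p = 0.163) and when the variance trend was left out (adjusted p = 0.197).

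The lumenal heat shock chaperones rose too. Hsp90b1, which folds integrins and Toll-like receptors among other clients, read 8349 on ND and 10229 and 10876 on HFD, a mean of 10552 ± 458 (SD, n = 2), or 1.26-fold (0.34 ± 0.09 SE, adjusted p = 0.00625). Its second probe set read 1883, 2555 and 2707 (0.48 ± 0.12, adjusted p = 0.00732). Both probe sets had both HFD arrays above ND. The call ended under quantile normalization (0.17, adjusted p = 0.0815), with no filter (adjusted p = 0.0577) and when the variance trend was left out (adjusted p = 0.108).

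Hspa5, the BiP chaperone that holds the sensors inactive in unstressed cells, read 20373, 22788 and 23387, a mean in HFD of 23088 ± 424 (SD, n = 2). The rise was 1.13-fold (0.18 ± 0.07 SE, adjusted p = 0.0466). It rests on that probe set alone. The others read 12224, 11687 and 12503 (-0.02 ± 0.08, adjusted p = 0.892) and 1775, 1846 and 1824 (0.05 ± 0.13, adjusted p = 0.790), and averaging the 3 gave 0.07 (adjusted p = 0.530). The call also ended under quantile normalization (0.07, adjusted p = 0.336), with no filter (adjusted p = 0.254), without a variance trend (adjusted p = 0.307) and with a robust variance model (adjusted p = 0.0556). The difference of Hspa5 was the smallest of the 5 that rose.

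Of the last 3 genes, Dnajb9 fell, while Xbp1 and Herpud1 read lower without a call on their brightest probe sets. Dnajb9 has a single probe set, which read 3499 on ND and 1695 and 1689 on HFD, a mean of 1692 ± 4.42 (SD, n = 2). It fell 2.06-fold (-1.04 ± 0.12 SE, adjusted p = 1.6e-05), and 3.67% of all genes had a lower difference. The HFD arrays were nearly equal and lay far below ND, and the call held under all 10 tested alternatives (-1.09 to -0.89). The difference of Hspa5 exceeded that of its co-chaperone Dnajb9 by 1.20 on HFD 1 and 1.24 on HFD 2.

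Xbp1 itself read 8030 on ND and 7323 and 7095 on HFD, a mean of 7209 ± 161 (SD, n = 2), and was not called (-0.16 ± 0.09 SE, adjusted p = 0.171, interval -0.35 to 0.04). Its other probe sets read 4776, 3868 and 3914 (-0.29 ± 0.10, adjusted p = 0.0371), 1758, 1374 and 1447 (-0.31 ± 0.13, adjusted p = 0.0763), and 216, 164 and 188 (-0.27 ± 0.24, adjusted p = 0.384). On all 4 probe sets both HFD arrays lay below ND, and 1 of the 4 was called lower on its own. Among all probe sets past the filter these shares were 54.9% and 24.4%. The 4 read the same gene on the same arrays, so they are not independent. The difference on the brightest probe set was close to the median of all genes, and under quantile normalization it was called (-0.31, adjusted p = 0.00802). The values give no separate level for the spliced form, which carries the activity.

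Herpud1 read 2111, 1716 and 1725, a mean in HFD of 1721 ± 6.43 (SD, n = 2), with both HFD arrays below ND but no call (-0.29 ± 0.12 SE, adjusted p = 0.0612, interval -0.55 to -0.03). Quantile normalization (adjusted p = 0.0464), the filter at the 75th percentile (adjusted p = 0.0366) and a robust variance model (adjusted p = 0.0478) each gave a call. Its second probe set went the other way, at 812, 1229 and 823 (0.30 ± 0.20, adjusted p = 0.256), and there HFD 1 alone stood clear of ND. Averaging the probe sets left a difference of 0.01.

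Tested each on its own, 23 of the 24 probe sets passed the filter. Of these, 9 were called higher (Hspa5 1, Hsp90b1 2, Calr 3, Canx 2 and Pdia6 1), 2 lower (Dnajb9 and Xbp1, 1 each) and 12 were not called. Among all probe sets past the filter 17.0% were higher and 24.4% lower. Both HFD arrays lay above ND for 14 of the 23 and below it for 6, against 33.9% and 54.9% of all probe sets. Affymetrix gives the suffix _s_at to probe sets that may match transcripts of several genes and _x_at to those with probes that may cross-hybridise. These suffixes mark 4 and 3 of the 24, among them the brightest of Canx and of Xbp1 and the dimmer ones of Calr.

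**Figure D3:**
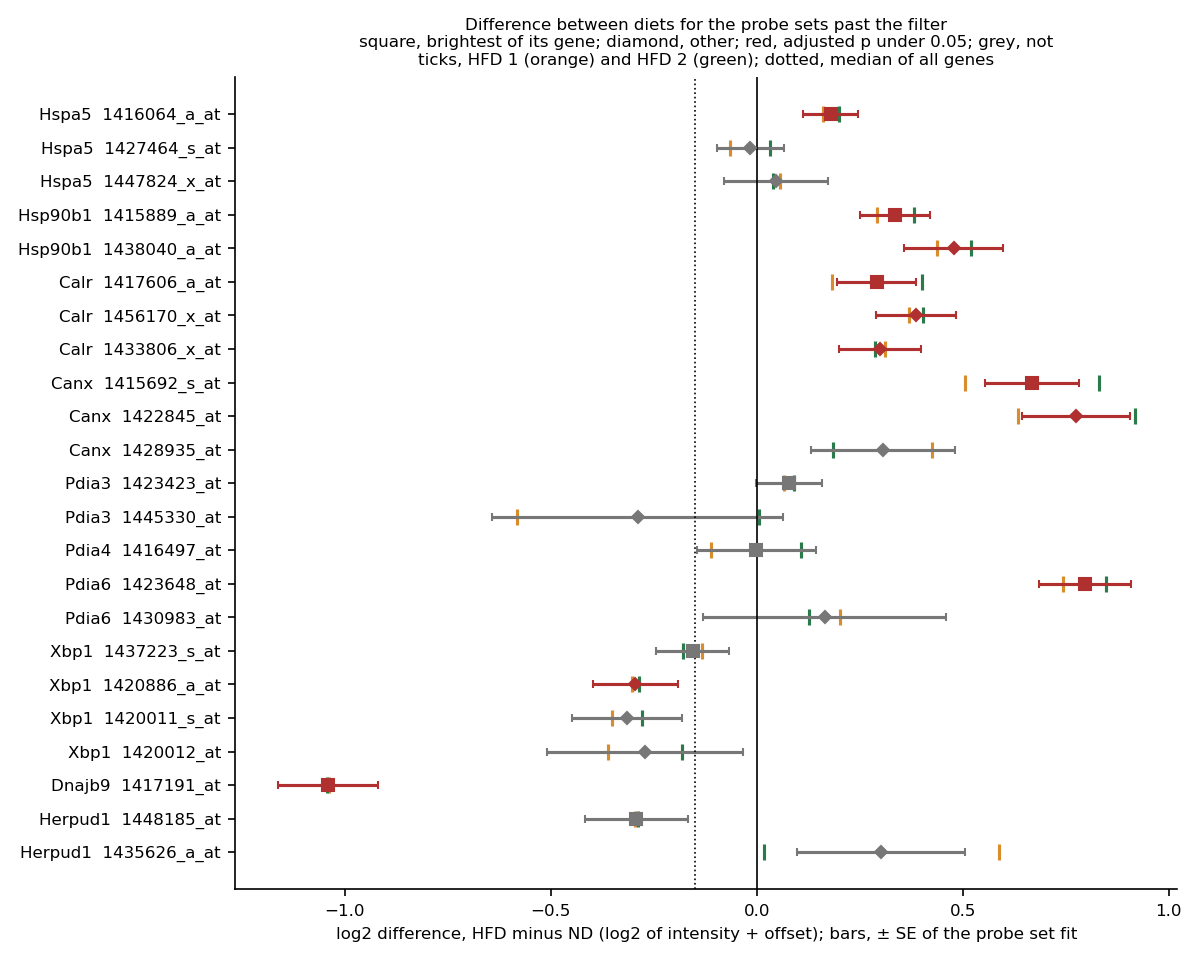
Log2 difference between diets (HFD minus ND) of the 23 probe sets past the filter, with bars for ± SE, ticks for each HFD array, red for an adjusted p under 0.05 and a dotted line at the median of all genes (-0.15). The probe sets of Hsp90b1, Calr, Canx and Pdia6 lie to the right of 0 and those of Xbp1 and Dnajb9 to the left, while the probe sets of Herpud1 lie on both sides.

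The rest of the ER pathway was read from 8 lists of genes by role, with 122 genes tested. Of these 30 rose and 29 fell (24.6% and 23.8%, near the 20.5% and 29.2% of all genes), with a median difference of -0.02 against -0.15 for all genes. With arrays centred on their medians the split was 47 higher and 22 lower, and under quantile normalization 29 and 30. The counts of each list below stand against the same 20.5% and 29.2% of all genes, and no list was tested as a set.

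Of the 3 sensors, Ern1 and Eif2ak3 fell. Ern1, the IRE1 kinase and nuclease that splices Xbp1, read 767 on ND and 385 and 349 on HFD and fell 2.04-fold (-1.03 ± 0.17 SE, adjusted p = 2.6e-04). Eif2ak3 (PERK) read 1520, 923 and 1089 and fell 1.51-fold (-0.59 ± 0.14, adjusted p = 0.00446). Atf6 read 724, 623 and 600 and was not called (-0.24 ± 0.15, adjusted p = 0.204). Its 2 other probe sets past the filter also read lower, at -0.57 and -0.37. In the list of sensors and their proteases and partners, 5 of 12 fell and 3 rose (median -0.19). Among the others, Creb3l2, a membrane-bound transcription factor of the secretory pathway, fell 1.91-fold. Bcl2l11 (BIM), a death gene, rose 2.01-fold, and Rtcb, the RNA ligase that completes Xbp1 splicing, rose 1.43-fold.

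Of 13 BiP cofactors and lumenal helpers, 5 rose and 1 fell (median -0.04). Sdf2l1, which acts with BiP and its J-domain partners, read 1095, 2141 and 2375 and rose 2.04-fold (1.03 ± 0.13 SE, adjusted p = 3.3e-05). Creld2, an ER protein induced by ER stress, read 1089, 1643 and 1665 and rose 1.51-fold. Dnajc3 (p58IPK), a BiP co-chaperone, read 5443, 3439 and 3195 and fell 1.64-fold (-0.71 ± 0.11, adjusted p = 1.5e-04). Its 4 other probe sets past the filter also read lower, at -0.78 to -0.47.

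Of 15 genes of disulfide formation, 1 rose and 4 fell (median -0.01). P4hb, the founding disulfide isomerase, read 5309, 6603 and 6727 and rose 1.25-fold (0.33 ± 0.09 SE, adjusted p = 0.0113). Tmx4, a membrane-bound member of the family, read 3579, 1881 and 1720 and fell 1.98-fold. Ero1b, an oxidase that recharges the isomerases, read 898, 507 and 481 and fell 1.79-fold.

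Of 15 genes of N-glycosylation and the calnexin cycle, 6 rose and 0 fell (median 0.18). Rpn1, a subunit of the oligosaccharyltransferase that adds the sugar chain, read 6516, 11540 and 12729 and rose 1.86-fold (0.89 ± 0.09 SE, adjusted p = 6.4e-06), with 4 other probe sets at 0.88 to 1.09. Mogs, the glucosidase that trims the first glucose, read 2195, 3852 and 3835 and rose 1.75-fold. Of 18 genes of the translocon and signal peptidase, 8 rose and 4 fell (median 0.23). Sec61a2, a form of the channel subunit, read 172, 357 and 329 and rose 1.90-fold, and Ssr2 of the translocon-associated complex rose 1.57-fold. Sec11c, a signal peptidase subunit, read 8445, 4888 and 4206 and fell 1.86-fold, and Tram2 fell 1.63-fold.

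ER-associated degradation, which returns misfolded proteins to the cytosol, had 10 of 23 tested genes that fell and 3 that rose (median -0.26). Over all genes, too, more were called lower (29.2%) than higher (20.5%), with a median of -0.15. Herpud2, the paralog of Herpud1, read 3632, 2510 and 2495 and fell 1.45-fold (-0.53 ± 0.11 SE, adjusted p = 0.0016), and Sel1l, the adaptor of the main ubiquitin ligase complex, fell 1.44-fold. Vcp, the ATPase that pulls proteins out of the membrane, read 8264, 12777 and 13668 and rose 1.60-fold. Ube2j2, a ubiquitin-conjugating enzyme, rose 1.49-fold on its brightest probe set, with the other at -0.08.

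Of 8 genes of the PERK branch, 2 rose and 2 fell (median -0.13). Trib3 read 87.3, 181 and 185 and rose 1.91-fold, and Atf3 read 127, 196 and 306 and rose 1.82-fold. Cebpb read 3497, 1844 and 1717 and fell 1.96-fold, and Ppp1r15a (GADD34), which ends the translational block, read 2658, 1644 and 1040 and fell 2.02-fold. Of 18 genes of ER to Golgi transport, 2 rose and 3 fell (median close to 0). Sec13, a COPII coat subunit, rose 1.54-fold and the cargo receptor Lman1 1.39-fold. The coat subunit Sec24d read 1088, 664 and 470 and fell 1.92-fold, and Surf4, a cargo receptor, fell 1.47-fold, with other probe sets at -0.97 to 0.16.

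**Figure D4:**
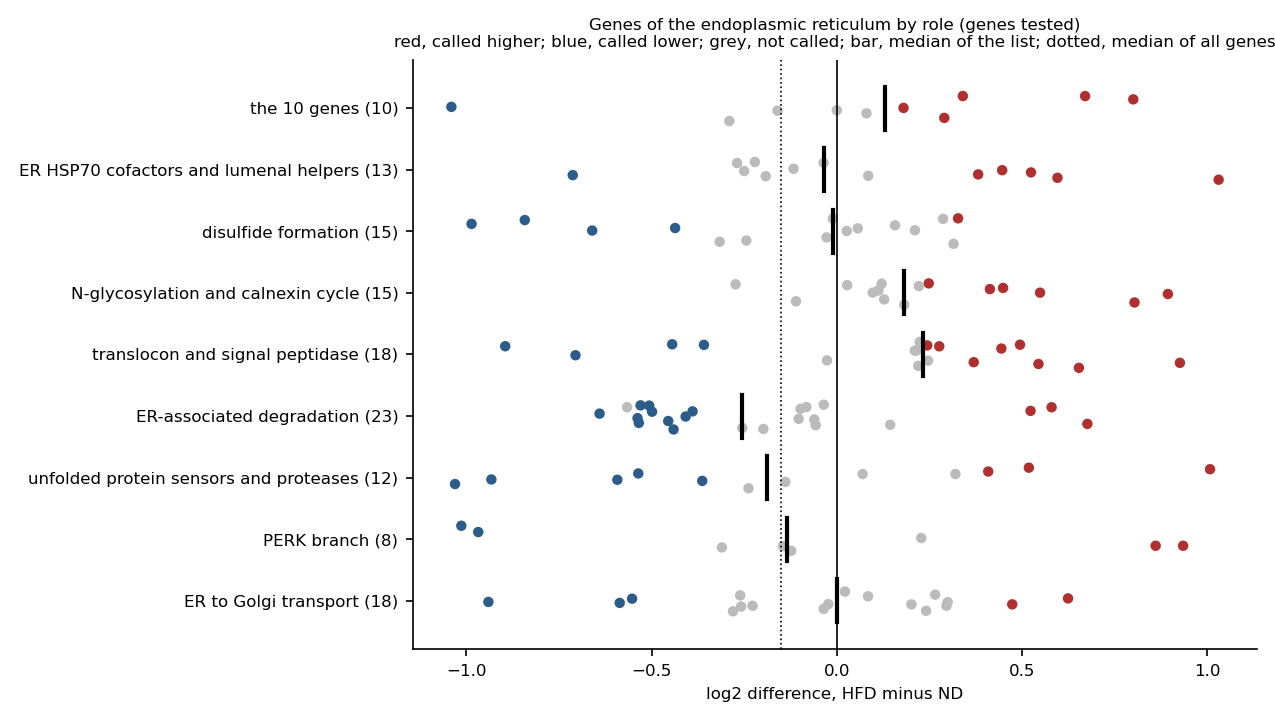
Log2 difference (HFD minus ND) of each tested gene, by role, with red for genes called higher, blue for lower and grey for not called, a black bar at the median of each list and a dotted line at the median of all genes (-0.15). In the N-glycosylation list 6 genes are red and 0 blue, and in the degradation list 10 are blue and 3 red.

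The calls of the 10 genes differed in how far they held across the processing. Pdia6 and Dnajb9 kept theirs under all 10 tested alternatives, Canx under 9, Hsp90b1 and Calr under 7 each, and Hspa5 under 5. Pdia3 and Pdia4 were called under 0 of the 10, Xbp1 under 1 and Herpud1 under 3.

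**Figure D5:**
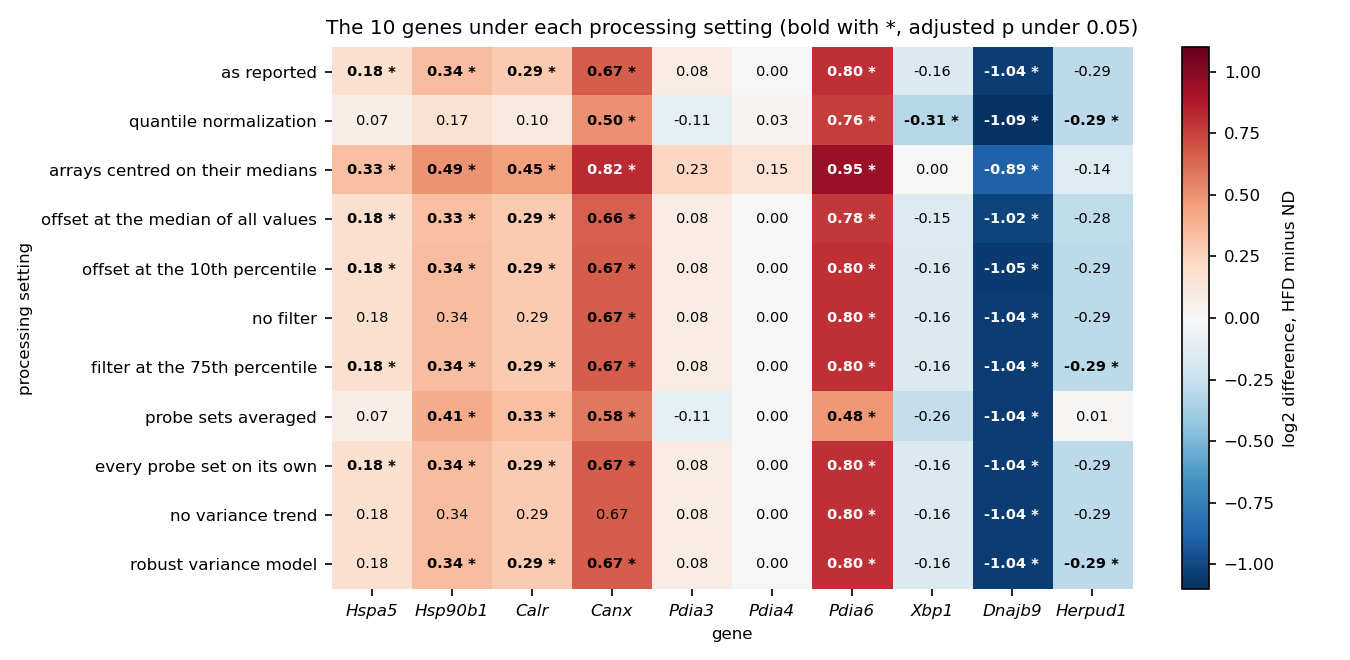
Log2 difference (HFD minus ND) of each of the 10 genes (columns) as reported and under 10 alternatives (rows), by colour and printed value, with bold type and an asterisk where the adjusted p was under 0.05. Pdia6 (0.48 to 0.95) and Dnajb9 (-1.09 to -0.89) carry the mark in every row, Hspa5 in 6 of 11.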

How the data were processed

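The deposited values are linear intensities per probe set. The submitters' processing notes name GCOS, an Affymetrix program for array scans, with its algorithm, background correction and version not given in the sources used here. With 2% trimmed from either end, every array had a mean of 500.0, which shows the common scale of the authors' values. Detection calls were not used, so dim probe sets may hold background only. Precision is limited by having 3 arrays. Control probe sets (64 of 45101) were left out.

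An offset of 17.65 (25th percentile of the values) was added before taking log2. A gene was tested if its brightest probe set averaged more than 71.4, the median over probe sets. The diets were compared in limma 3.58.1 (lmFit, then eBayes with a variance trend, two-sided) under R 4.3.3. The fit had 1 residual and 11.69 prior degrees of freedom. Its spread comes from the HFD arrays, and ND was taken to vary as they do. The script was tested on simulated data. The 10 genes, the role lists and the cell type markers were chosen with earlier results of these data known. Named genes were the 10, up to 2 called genes a list in each direction, ranked by the smaller of their differences on the HFD arrays, the 3 sensors, and the tested genes with an exact ERSE. Alternatives changed the normalization, offset, filter, merging of probe sets, variance model and threshold, or left out an HFD array. Python 3.11.15 with pandas 2.3.3, numpy 2.4.6 and matplotlib 3.10.9 made the tables and figures.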

Additional observations from a re-analysis of the deposited data

How the results depend on the processing

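The count of the 10 genes called higher, 5 as reported, was 2 under quantile normalization, 2 with no filter, 1 without a variance trend and 3 at an adjusted p under 0.01. The count called lower, 1 as reported, was 3 under quantile normalization and 2 each with a robust variance model and with the stricter filter (75th percentile). Their median difference, 0.13 as reported, was 0.05 under quantile normalization, 0.28 with arrays centred and 0.04 with probe sets averaged. With arrays centred the median of all genes moved from -0.15 to 0. Of the pathway genes, 47 were higher with arrays centred, 16 without a variance trend and 18 at an adjusted p under 0.01, against 30, and 17 were lower without a trend, against 29. Of all genes, 2117 were higher and 3015 lower, against 3818 and 5487 with every probe set on its own (more features tested), 1922 lower with no filter and 1974 lower at an adjusted p under 0.01. With arrays centred the split of all genes was 2757 higher and 2097 lower. By size, 620 genes were higher and 269 lower, against 1316 and 1541 at 1.5-fold (1 of the 10 genes higher, against 0), 137 lower with the offset at the median, 513 lower with no filter and 439 to 632 lower with a single HFD array. The ERSE count of 5 became 8 with 1 mismatch allowed. Apart from alternatives made of more features, another threshold or another filter, the cause was not tested. No paired analysis was possible because ND has a single array with no replicate number. Leaving out an HFD array leaves no residual degrees of freedom, so it gave values with no test.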
